A study of Mus musculus with 24 samples.

Results

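The inflammasome and pyroptosis genes were taken as 9 of the 45777 genes in the table by matching gene symbols: the sensors Nlrp3, Nlrp1b, Nlrc4 and Nlrp10, the adaptor Pycard, the caspases Casp1 and Casp4, the pore-forming effector Gsdmd and the ATP-gated channel P2rx7. All 9 symbols were found. They were followed in polyA RNA sequencing of skin and dorsal root ganglia (DRG), the ganglia that hold the cell bodies of sensory neurons, with 6 libraries in each of 4 groups: model skin, control skin, model DRG and control DRG. Per the series' design text, the mice were female BALB/c aged 6 weeks, and the rosacea-like model was made by intradermal injections of 40 µL of 320 µM LL37, a human cathelicidin peptide, over 2 days. The labels do not say what the controls received. The design text also describes oral gabapentin at 100 mg/kg from day 3 and collection of DRG on day 4, but no sample label names gabapentin, and the time of skin collection is not given. Nothing in the labels ties the libraries of a group to separate mice, so the p-values measure only how far these libraries spread, which may be technical.

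Inflammasomes are protein complexes of the innate immune system that assemble in the cytosol around a sensor of microbial products or cell damage. Sensors of the NLR family recruit the adaptor ASC, encoded by Pycard, which in turn clusters and activates caspase-1. Caspase-1 cleaves the precursors of interleukin-1 beta and interleukin-18 and the protein gasdermin D, whose freed N-terminal part forms pores in the plasma membrane and leads to the lytic death called pyroptosis. Mouse caspase-4, also called caspase-11, senses bacterial lipopolysaccharide directly and cleaves gasdermin D as well, and P2RX7 lets potassium out of cells exposed to extracellular ATP, a trigger of NLRP3. Much of this control acts on protein assembly and cleavage, which RNA levels do not show.

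Total counts per library lay between 45238735 and 68396846, and all 9 genes passed the filter on low counts in both tissues, with the lowest mean at 1.45 CPM (read counts scaled to the library total after TMM adjustment) in skin and at 0.284 CPM in DRG. The tissue labels were checked against marker sums. Keratinocyte markers summed to 11483 to 27882 CPM in model skin and 17032 to 35062 CPM in skin of controls, against at most 12.5 CPM in DRG. Sensory neuron markers summed to 11575 to 15067 CPM in model DRG and 12437 to 16196 CPM in control DRG, against at most 44.8 CPM in skin. Control skin 2 stood apart, with hair follicle markers at 1193 CPM against a control median of 45461 CPM and the highest keratinocyte sum of all skin libraries. Model skin 2 had the highest T cell marker sum, 272 CPM against a model median of 33.4 CPM. Leaving out both libraries kept the 6 calls among the 9 genes reported for skin.

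In model skin, 6 of the 9 genes rose, none fell and 3 did not pass the test (edgeR quasi-likelihood test, Benjamini-Hochberg adjusted p under 0.05 over 19526 genes). The genes that rose were Nlrp3, Nlrp1b, Nlrc4, Casp4, Gsdmd and P2rx7, and those that did not pass were Casp1, Pycard and Nlrp10. Of all genes tested, 14.1% were called higher, 5.82% lower and 19.9% in either direction. The median log2 fold change was 1.38 over the 9 genes and -0.02 over all genes tested. For Nlrp3, Nlrp1b, Casp4 and Gsdmd the 2 groups did not overlap, with all model libraries higher. This held for 7.25% of all genes tested, and 8.69% had groups that did not overlap in either direction.

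**Figure D1:**
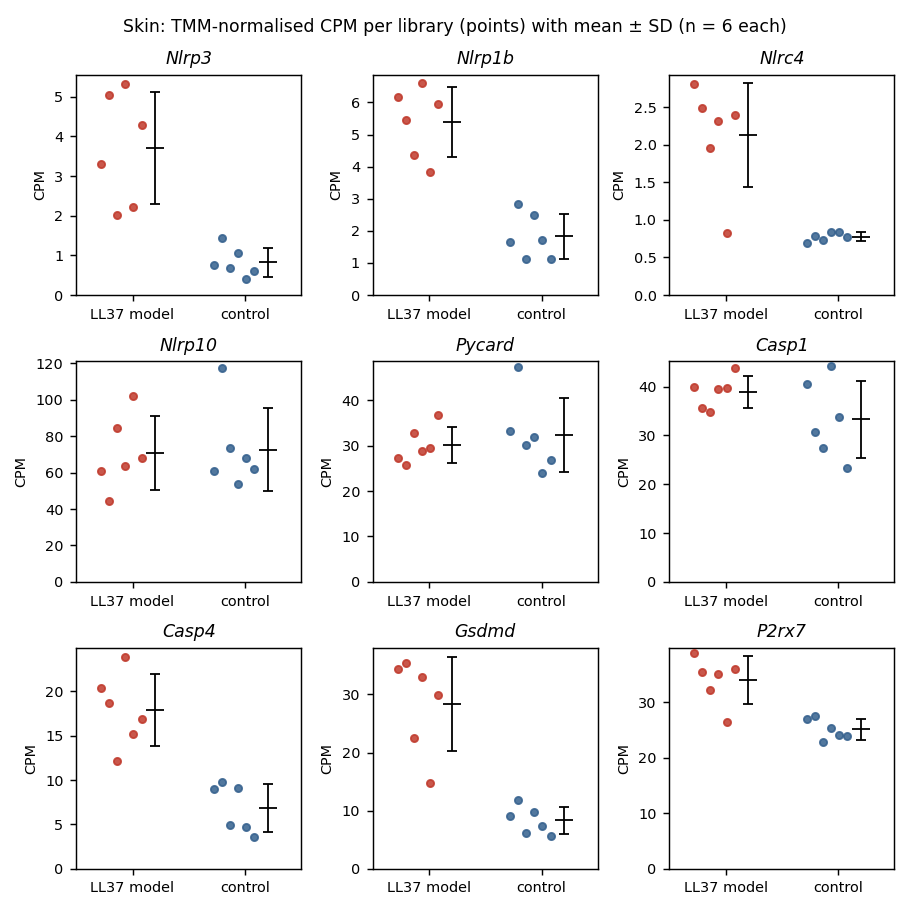
Each panel plots the TMM-scaled CPM of 1 gene in the 6 model skin libraries (left) and the 6 control skin libraries (right), with the mean and SD as a bar. Nlrp3, Nlrp1b, Casp4 and Gsdmd show 2 separate groups of points, 1 model library lies among the controls for Nlrc4 and for P2rx7, and the points of Casp1, Pycard and Nlrp10 overlap.

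Among the sensors, Nlrp3 changed most. Nlrp3, which responds to potassium efflux and many forms of cell damage, had a lowest, median and highest value of 2.02, 3.80 and 5.32 CPM in model skin, against 0.412, 0.726 and 1.45 CPM in control skin. Its log2 fold change was 2.16 ± 0.34 (SE, n = 6 each), a 4.47-fold increase with an edgeR adjusted p of 0.00123. Model skin 4 and 2 were highest, and among the controls library 2 was highest. Nlrp1b, the mouse sensor cleaved by anthrax lethal factor, had 3.83, 5.70 and 6.59 CPM (lowest, median and highest) in model skin, against 1.11, 1.68 and 2.85 CPM in control skin. The increase was 2.96-fold, with a log2 fold change of 1.56 ± 0.25 (SE) and an adjusted p of 0.00144. Nlrp1b has near-identical neighbours, overlaps the pseudogene Nlrp1c-ps in the annotation and differs between mouse strains, so reads may have been split between copies and its value is uncertain. Its neighbour Nlrp1a was not called (log2 fold change 0.29, adjusted p = 0.576).

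Nlrc4, which assembles with NAIP proteins that bind bacterial flagellin and secretion needle proteins, was the lowest of the 9 genes in skin per transcript length. It had 0.824, 2.35 and 2.81 CPM in model skin, against 0.692, 0.782 and 0.841 CPM in control skin. It rose 2.74-fold (log2 fold change 1.45 ± 0.25 SE, adjusted p = 0.00183). Model skin 5 alone lay within the control range, with the other 5 model libraries at 1.96 CPM or more. Nlrp10, an NLR protein without the leucine-rich repeats of the family and known from the epidermis, did not pass the test. It had 44.6, 66.0 and 102 CPM in model skin, against 53.9, 65.1 and 118 CPM in control skin, and its log2 fold change of -0.04 had a 95% interval from -0.47 to 0.39 (adjusted p = 0.915). Its highest control value was that of control skin 2, and its highest model value that of model skin 5, the libraries with the highest keratinocyte marker sums of their groups. The part of keratinocyte content in these values was not tested.

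Neither the adaptor nor caspase-1 passed the test in skin. Pycard had 25.8, 29.1 and 36.8 CPM in model skin, against 23.9, 31.0 and 47.4 CPM in control skin. Its log2 fold change of -0.10 had a 95% interval from -0.39 to 0.20 (adjusted p = 0.681). Casp1 had 34.9, 39.6 and 43.8 CPM in model skin, against 23.3, 32.2 and 44.1 CPM in control skin, with a log2 fold change of 0.22 and an interval from -0.05 to 0.50 (adjusted p = 0.275). These intervals leave out increases of the size seen in Nlrp3, Nlrp1b, Nlrc4, Casp4 and Gsdmd. An increase of the size seen in P2rx7 (log2 fold change 0.44) lies within the Casp1 interval and outside the Pycard interval. The Casp1 libraries varied less in model skin, with a coefficient of variation of 8.34%, than in control skin, with 23.7%, a difference that was not tested.

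Casp4 and Gsdmd both rose in model skin. Casp4, the lipopolysaccharide-binding caspase, had 12.2, 17.8 and 23.9 CPM in model skin, against 3.53, 7.01 and 9.73 CPM in control skin. It rose 2.61-fold (log2 fold change 1.38 ± 0.27 SE, adjusted p = 0.00392). Gsdmd, the pore-forming substrate of both caspases, had 14.8, 31.4 and 35.4 CPM in model skin, against 5.72, 8.19 and 11.8 CPM in control skin. The rise was 3.41-fold (log2 fold change 1.77 ± 0.24 SE, adjusted p = 0.000595). Model skin 5 had the lowest Gsdmd value of the model group and model skin 3 the next, and both remained above all controls. P2rx7 moved least among the called genes: it had 26.4, 35.3 and 38.9 CPM in model skin, against 22.8, 24.7 and 27.6 CPM in control skin. Its 1.36-fold rise (log2 fold change 0.44 ± 0.09 SE, adjusted p = 0.00677) was small beside that of the others, but its libraries varied little around their means. Model skin 5 lay within the control range and the other 5 libraries above it.

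Casp4 lies next to Casp1 on mouse chromosome 9 of GRCm38.p6, with Casp1 at chr9:5298517-5307281 and Casp4 at chr9:5308849-5336791, and Nlrp3 lies at chr11:59541569-59566955. The other genes lie at chr11:71152574-71242514 (Nlrp1b), chr17:74426255-74459144 (Nlrc4), chr7:108921853-108930158 (Nlrp10), chr7:127991373-127993867 (Pycard), chr15:75862144-75867408 (Gsdmd) and chr5:122643927-122692336 (P2rx7). RefSeq promoter windows of GRCm38.p6, from 250 bases before to 50 bases after a start site, were matched for 7 of the 9 genes (11 windows, as some genes have more than 1 start site). Nlrp3 and Casp4 rose in skin and held a match to a kappa-B motif, the sequence bound by NF-kappa-B. Casp1 and Pycard were not called and held none. Windows of these genes are shown 5′ to 3′ on the gene's strand, with capitals marking a match. They are chr11:59541319-59541618 (plus strand), chr9:5308599-5308898 (plus strand), chr9:5298267-5298566 (plus strand) and chr7:127993818-127994117 (minus strand).
Nlrp3: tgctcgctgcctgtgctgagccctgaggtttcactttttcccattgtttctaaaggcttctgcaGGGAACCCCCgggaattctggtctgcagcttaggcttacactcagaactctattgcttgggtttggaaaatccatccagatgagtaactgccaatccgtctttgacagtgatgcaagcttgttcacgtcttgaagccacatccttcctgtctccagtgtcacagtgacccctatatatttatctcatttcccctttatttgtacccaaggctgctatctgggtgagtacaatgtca
Casp4: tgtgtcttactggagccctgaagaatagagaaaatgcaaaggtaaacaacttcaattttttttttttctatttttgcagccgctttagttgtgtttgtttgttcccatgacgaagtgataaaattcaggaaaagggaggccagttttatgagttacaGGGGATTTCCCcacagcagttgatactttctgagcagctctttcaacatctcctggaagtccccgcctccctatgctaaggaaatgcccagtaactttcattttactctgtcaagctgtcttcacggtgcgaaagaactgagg
Casp1: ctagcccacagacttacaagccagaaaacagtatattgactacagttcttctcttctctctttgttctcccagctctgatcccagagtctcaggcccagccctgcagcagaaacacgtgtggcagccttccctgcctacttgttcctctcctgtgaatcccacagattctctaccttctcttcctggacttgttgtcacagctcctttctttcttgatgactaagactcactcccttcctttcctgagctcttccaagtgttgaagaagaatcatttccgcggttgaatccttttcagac
Pycard: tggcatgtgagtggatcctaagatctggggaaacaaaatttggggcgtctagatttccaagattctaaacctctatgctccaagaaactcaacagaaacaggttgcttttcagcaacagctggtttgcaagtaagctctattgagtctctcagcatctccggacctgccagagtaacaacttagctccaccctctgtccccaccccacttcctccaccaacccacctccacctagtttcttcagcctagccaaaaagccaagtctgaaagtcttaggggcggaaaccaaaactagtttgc
The Nlrp3 match begins at base -186 from the start site, and the other Nlrp3 window held none of the motifs searched. The Casp4 run in capitals holds 2 overlapping matches, which begin at bases -93 and -92. The other motifs searched on both strands were the interferon-response element core and the interferon-gamma-activated site TTCNNNGAA, and neither lay in any of the 11 windows. Kappa-B matches lay in 3 windows, all of Nlrp3 or Casp4, and the Casp4 windows overlap each other. No window of Nlrp1b, Nlrc4 or P2rx7, which also rose in skin, held a match. Gsdmd, which rose as well, and Nlrp10 had no window. Of all 32851 windows in the RefSeq table, 4.51% held a kappa-B match, 3.44% the interferon-response core and 8.3% the activated site. A match of letters is a description and shows no binding.

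Markers of macrophages and of other cell types moved with the genes that rose in skin. All 14 monocyte and macrophage markers rose, by log2 fold changes of 1.49 to 4.76 (median 2.39), and none was at 0 in any group. Their summed level was 911 to 2870 CPM (median 2550) in model skin and 241 to 640 CPM (median 469) in control skin. Model skin 5 had the lowest sum of the model group, and it also had the lowest Gsdmd, Nlrp1b, Nlrc4 and P2rx7 values of that group. Nlrp3 and Casp4, which rose too, were lowest in model skin 3 instead. Model skin 5 also had the lowest adipocyte and endothelial sums of the model group. Of 10 adipocyte markers 9 rose (median log2 fold change 1.70), with sums of 1721 to 13009 CPM (median 3926) in model skin, highest in model skin 1, and 1396 to 1758 CPM (median 1676) in control skin. Of 10 endothelial markers 9 rose (log2 fold changes over the list of 0.31 to 1.49), with sums of 226 to 432 CPM (median 336) in model skin and 137 to 212 CPM (median 154) in control skin. No adipocyte or endothelial marker was at 0. The part of these cell types in the results was not tested, and in bulk tissue more cells of a type and more RNA per cell cannot be told apart. T cell markers summed to 28.2 to 272 CPM in model skin and 16.4 to 38.0 CPM in control skin. Of 9 tested neutrophil markers 5 rose and 4 did not pass, with log2 fold changes of -1.01 to 6.11. Neutrophil sums overlapped, at 68.1 to 280 CPM (median 104) in model skin and 32.4 to 290 CPM (median 48.4) in control skin. The highest was that of control skin 1.

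**Figure D2:**
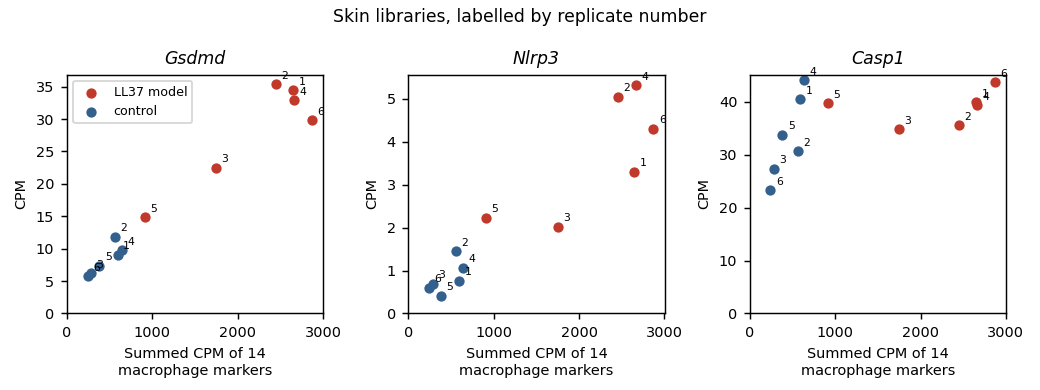
Each panel plots the CPM of Gsdmd, Nlrp3 or Casp1 (vertical axis) against the summed CPM of 14 macrophage markers (horizontal axis) in the 12 skin libraries, with points labelled by replicate. Model libraries lie to the right, at 911 CPM or more, and control libraries at 640 CPM or less, and the Casp1 values of the groups overlap.

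Over the 12 skin libraries, with group means subtracted from log2 CPM, Pearson's r was 0.915 between Gsdmd and P2rx7, 0.869 between Gsdmd and Nlrp1b, 0.835 between Nlrc4 and P2rx7 and 0.822 between Casp4 and Nlrp1b, the highest values among the 9 genes. Other pairs of genes that rose lay lower, down to 0.199 between Nlrc4 and Casp4 and 0.417 between Nlrc4 and Nlrp3. Casp1, which was not called, had r of 0.679 with Casp4 and 0.574 with Nlrp1b. Between Nlrp10 and Nlrc4 r was -0.565. These libraries share depth and tissue makeup, so the values are descriptions. Of 14283 genes compared, Pik3ap1 (0.985), Alpk1 (0.981) and Clec4a3 (0.979) were most like Gsdmd, and Col8a1 (0.958), Casp8 (0.918) and Angpt2 (0.914) most like Nlrp3. The genes most like the others were Ace for Casp1 (0.965), Egfros for Pycard (0.947), Meis3 for Casp4 (0.972), Grn for Nlrc4 (0.953), Skap2 for Nlrp1b (0.958), Agpat5 for Nlrp10 (0.955) and Ptafr for P2rx7 (0.968).

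In DRG none of the 9 genes was called by edgeR, and 1 of them, Nlrc4, was at an unadjusted p under 0.05. DESeq2 also called none. Of all genes tested in DRG, 0.0974% were called (19 of 19509, all higher), and 1822 lay at an unadjusted p under 0.05. The median log2 fold change of the 9 genes was 0.07 (range -0.11 to 0.67). None of the 9 had groups that did not overlap, against 0.379% of all genes with the model higher and 0.528% in either direction.

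**Figure D3:**
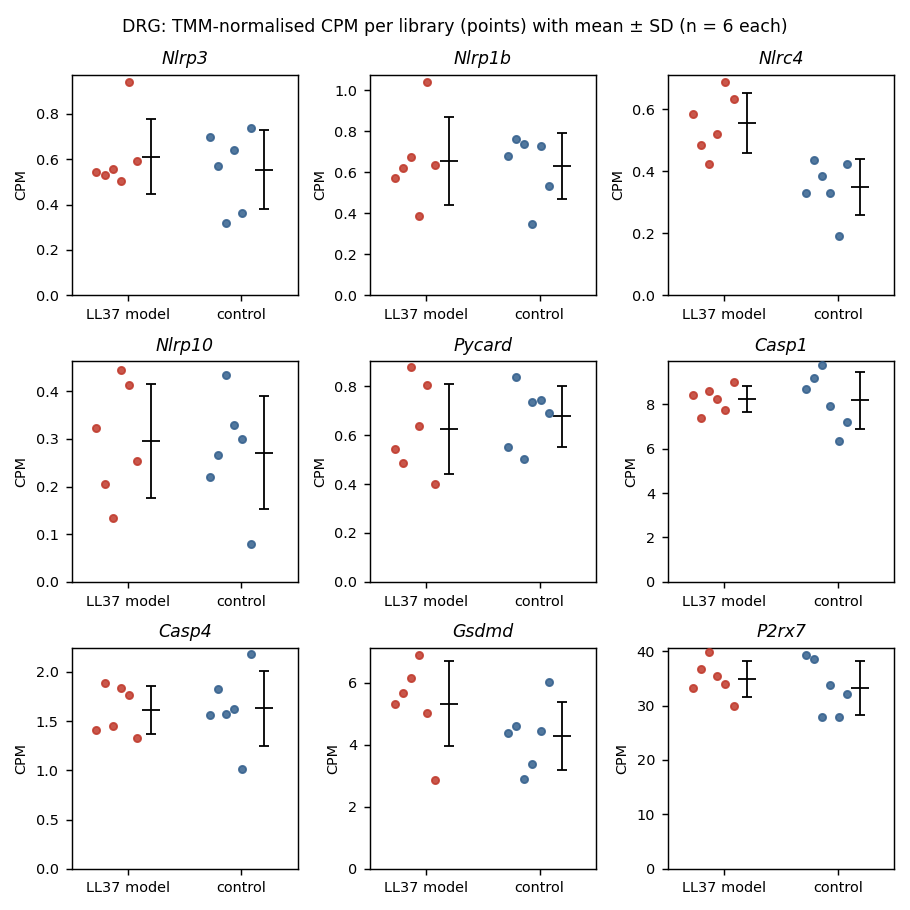
Each panel plots the TMM-scaled CPM of 1 gene in the 6 model DRG libraries (left) and the 6 control DRG libraries (right), with the mean and SD as a bar. The groups overlap in all 9 panels, and for Nlrc4 5 of the 6 model libraries lie above every control.

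Nlrc4 came closest to a change in DRG. It had 0.422, 0.554 and 0.688 CPM in model DRG, against 0.189, 0.358 and 0.437 CPM in control DRG, and 5 of 6 model libraries lay above all controls. Its log2 fold change was 0.67 ± 0.21 (SE, n = 6 each), with an unadjusted edgeR p of 0.00769 and an adjusted p of 0.448. These levels rest on 25 to 40 counts per model library and 12 to 27 per control library. Nlrp3 had 0.502, 0.550 and 0.943 CPM in model DRG, against 0.317, 0.605 and 0.737 CPM in control DRG (log2 fold change 0.14, adjusted p = 0.892). The highest value, in model DRG 5, stood apart from the next at 0.591 CPM, and that library also had the highest macrophage and neutrophil marker sums of the DRG libraries in its group, 284 and 418 CPM. Their part in that value was not tested. Nlrp1b had 0.386 to 1.04 CPM in model DRG and 0.349 to 0.760 CPM in control DRG (adjusted p = 0.966).

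Gsdmd had 2.87, 5.50 and 6.92 CPM in model DRG, against 2.89, 4.42 and 6.04 CPM in control DRG. Its log2 fold change of 0.31 had a 95% interval from -0.09 to 0.71 and did not pass (adjusted p = 0.645). Casp1 had 7.40, 8.32 and 8.98 CPM in model DRG, against 6.34, 8.31 and 9.75 CPM in control DRG, and its interval around a log2 fold change of 0.01 ran from -0.19 to 0.21. Casp4 was at 1.33 to 1.89 CPM in model DRG and 1.01 to 2.18 CPM in control DRG (log2 fold change -0.01, adjusted p = 0.987). P2rx7 was at 29.9 to 39.9 CPM in model DRG and 27.9 to 39.3 CPM in control DRG (log2 fold change 0.07, adjusted p = 0.853). Pycard and Nlrp10 were low in DRG, at 0.401 to 0.878 and 0.135 to 0.444 CPM in model DRG, against 0.501 to 0.836 and 0.0785 to 0.434 CPM in control DRG. For Nlrp10 this was 8 to 23 counts in model libraries and 5 to 26 in control libraries, so a modest change would not be detectable at this depth.

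The difference of the model effect between the tissues was tested in 1 fit of all 24 libraries. The fit treated skin and DRG libraries as independent, and the labels do not say whether they came from the same mice. It passed for 4 of the 9 genes, all with a larger change in skin, against 10.6% of 17251 genes higher and 6.43% lower. The skin change minus the DRG change was 1.98 ± 0.42 (SE, log2 scale) for Nlrp3 (adjusted p = 0.00264), 1.47 ± 0.35 for Nlrp1b (0.00645), 1.41 ± 0.32 for Gsdmd (0.00445) and 1.35 ± 0.32 for Casp4 (0.00579). For Nlrc4 the difference was 0.74, with a 95% interval from 0.11 to 1.36, and did not pass (adjusted p = 0.110), but it did without model skin 5 (0.89, adjusted p = 0.00916). For P2rx7 it was 0.33 (interval 0.07 to 0.58, adjusted p = 0.0871), and it passed without model skin 5 (0.37, adjusted p = 0.0319) or without control skin 2 (0.39, adjusted p = 0.0415). Casp1, Pycard and Nlrp10 gave 0.17, -0.02 and -0.18, none of them called.

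**Figure D4:**
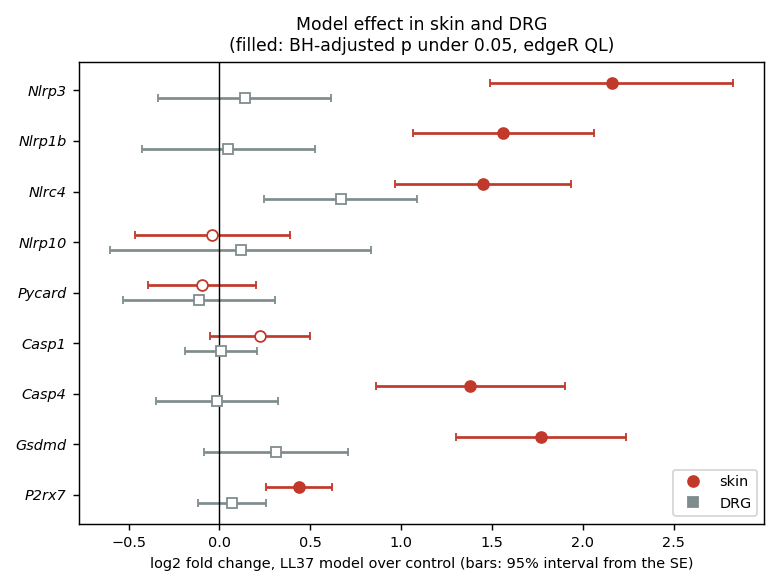
The horizontal axis gives the log2 fold change of model over control for each of the 9 genes, with circles for skin, squares for DRG and bars for the 95% interval from the SE, and filled symbols mark an adjusted p under 0.05. The 6 filled symbols are all for skin, from 0.44 for P2rx7 to 2.16 for Nlrp3, and no DRG symbol is filled.

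Control levels of 8 of the 9 genes differed between the tissues, 7 of them higher in control skin and P2rx7 lower. Of 21998 genes tested, 83.3% were called, 42% higher and 41.3% lower in control skin. Scaled together, the mean of Nlrp10 was 72.1 ± 21.5 CPM in control skin, against 0.278 ± 0.123 CPM in control DRG (SD, n = 6 each), a 258-fold difference (adjusted p = 2.38e-16). Pycard averaged 32.0 ± 7.51 CPM in control skin, against 0.692 ± 0.129 CPM in control DRG, a 46.1-fold difference (adjusted p = 2.17e-17). Casp1 and Casp4 were 3.96-fold and 4.07-fold higher in control skin. P2rx7 went the other way, with 25.0 ± 1.57 CPM in control skin, against 34.0 ± 4.96 CPM in control DRG (log2 difference -0.45, adjusted p = 0.000119). Nlrp3 was the exception, with a log2 difference of 0.53 that did not pass (adjusted p = 0.104), except with control skin 5 left out (0.66, adjusted p = 0.0443).

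Levels of different genes are compared here in TPM, which scales counts to transcript length and then to the library total. In model skin Casp1 was highest at 54.4 ± 6.02 TPM (SD, n = 6), followed by Nlrp10, Gsdmd, Pycard and Casp4 at mean TPM of 33.5, 33.3, 29.9 and 27.3, which do not differ beyond their spread. P2rx7 averaged 15.3 TPM, and Nlrp1b, Nlrp3 and Nlrc4 were low at 2.42, 1.97 and 1.04 TPM. In control skin the order was Casp1 at 45.6 TPM, Nlrp10 at 33.7 and Pycard at 31.4, then P2rx7, Casp4 and Gsdmd between 9.65 and 10.9 TPM, and Nlrp1b, Nlrp3 and Nlrc4 below 1 TPM. In model DRG P2rx7 was highest at 18.8 TPM, followed by Casp1 at 13.9, Gsdmd at 7.58 and Casp4 at 2.98, with the other 5 genes below 1 TPM. In control DRG the same order began with P2rx7 at 17.1 TPM and Casp1 at 13.3, followed by Gsdmd at 5.83 and Casp4 at 2.90.

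Other genes of the pathway were followed in 8 lists. The rise of macrophage, adipocyte and endothelial markers, and of some T cell and neutrophil markers, described above stands beside each of them in skin. So do the shares over all genes tested in skin, 14.1% called higher and 5.82% lower. Of 10 other sensor genes tested in skin, 6 rose, none fell and 4 did not pass, with a median log2 fold change of 2.12. Those that did not pass were Nlrp1a, Naip1, Nod1 and Nod2. Mefv, which encodes the sensor pyrin, rose 5.71-fold, to 8.27 ± 3.90 CPM in model skin against 1.45 ± 0.464 CPM in control skin (SD, n = 6 each, adjusted p = 0.000594). Aim2, which binds cytosolic DNA, rose by 1.94 on the log2 scale (adjusted p = 0.000622). Naip5 and Naip6, partners of NLRC4, rose by 2.47 and 2.39 on the log2 scale. They are near-identical copies, so reads may have been split between them. Of 14 regulators and partners, 9 rose and none fell. Trim30a and Gm12250 (also named Irgb10) rose by 2.98 and 2.82 on the log2 scale. Ifi213 had 15 to 118 counts per model skin library against 0 to 4 per control library. Nek7, the kinase that binds NLRP3, was not called (log2 fold change 0.11, adjusted p = 0.545), but was without control skin 2 and model skin 2 (0.27, adjusted p = 0.0404).

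Of 10 genes of interleukin-1 and interleukin-18, their receptors and inhibitors, 4 rose and none fell in skin (2 without control skin 3, 5 or 6). The genes that rose were Il1b, Il18bp, Il18rap and Il18r1. Il1b, which encodes the interleukin-1 beta precursor, had 5.78, 6.82 and 20.7 CPM in model skin, against 1.32, 2.64 and 6.94 CPM in control skin (log2 fold change 1.68 ± 0.47 SE, adjusted p = 0.0253). The call was lost when model skin 4 or control skin 3, 5 or 6 was left out (highest adjusted p = 0.0603), and when control skin 2 and model skin 2 were left out together (0.0523). Il18, which encodes the interleukin-18 precursor, was not called (log2 fold change 0.13, adjusted p = 0.772), and was called with those 2 libraries left out (0.58, adjusted p = 0.0115). Il18bp, the soluble inhibitor of interleukin-18, rose by 1.73 on the log2 scale, with 12.1 ± 4.73 CPM in model skin against 3.63 ± 0.499 CPM in control skin (adjusted p = 0.000798).

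Of 8 gasdermins and membrane rupture genes tested, 2 rose, 1 fell and 5 did not pass, against 14.1% of all genes higher and 5.82% lower. Gsdme, the gasdermin cut by caspase-3, rose by 1.19 (adjusted p = 0.00911), and Ninj1, which ruptures the membrane after pore formation, had a log2 fold change of 0.86 (adjusted p = 0.00486). Gsdma, a gasdermin of the epidermis and hair follicle, fell by 0.80 on the log2 scale (adjusted p = 0.0378), a call that was lost when any 1 of model skin 1, 4 or 6 or control skin 1, 3, 4, 5 or 6 was left out. Among the controls its lowest value, 195 CPM, was in control skin 2, the library with the lowest hair follicle marker sum. That sum was 1854 to 29674 CPM (median 9378) in model skin and 1193 to 57540 CPM (median 45461) in control skin. The lowest control value after control skin 2 was 35697 CPM, above every model library. All 11 markers were lower in model skin (log2 fold changes of -2.07 to -1.10, median -1.61). None of them was called by edgeR (4 at an unadjusted p under 0.05). The part of the hair follicle sum in the Gsdma value was not tested. Of 8 other caspases, 3 rose and 1 fell. Casp8 rose by 0.85 (adjusted p = 0.00129) and Casp2 fell by 0.34. Of 6 necroptosis genes, which drive another form of lytic death, 4 rose, among them Zbp1 (log2 fold change 3.77) and Mlkl (1.51). Of 12 priming genes, 5 rose, with Irf8, Irf1 and Tlr4 at 2.29, 1.20 and 1.31. Among 7 genes of extracellular ATP and ion flux, 3 rose, including Kcnk13, a potassium channel (2.12), and 1 fell, Nt5e. In DRG edgeR called none of the genes in these 8 lists, and no alternative setting, DESeq2 included, called any of them. Of the 6 necroptosis genes, 4 lay at an unadjusted p under 0.05 in DRG, against 1822 of all 19509 genes tested. Their lowest edgeR adjusted p was 0.494.

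**Figure D5:**
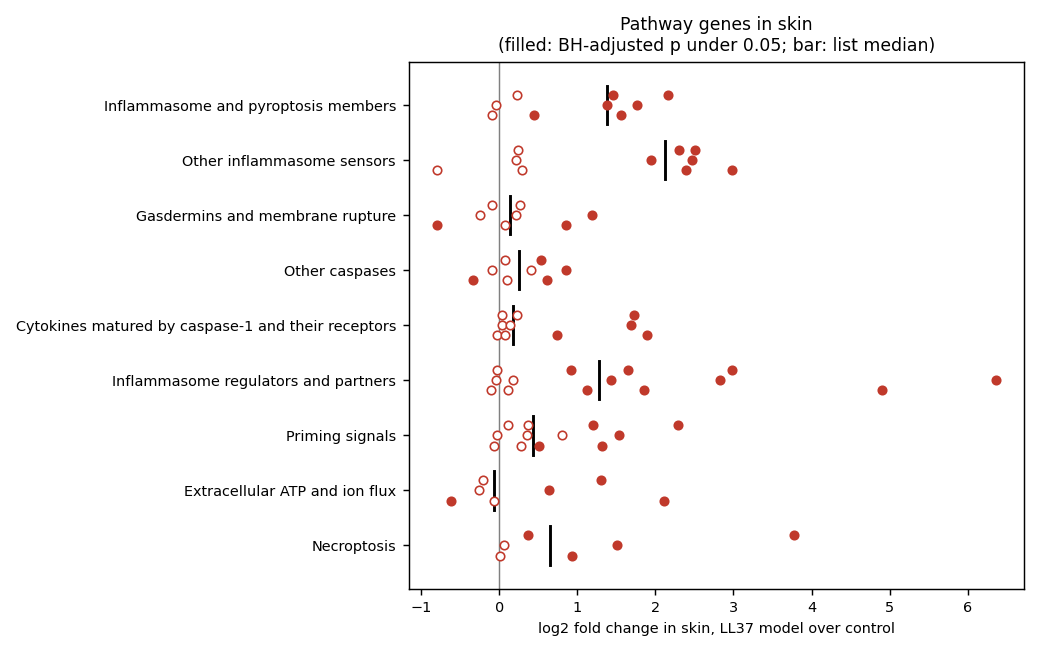
Each row shows the log2 fold change of model over control skin for the genes of 1 list, the 9 genes in the top row and 8 pathway lists beneath it, with filled points for called genes and a bar at the median. The median is 1.38 for the 9 genes, 2.12 for the other sensors and 1.28 for the regulators, and from -0.06 to 0.65 for the other 6 lists.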

How the data were processed

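PolyA RNA sequencing of 24 mouse libraries was analysed. Groups came from the sample titles. The deposited table gives read counts per gene, which the authors left without normalization, and FPKM (scaled to library size and transcript length) and TPM (scaled to length, then to library size) values computed by the authors; FPKM values were not used. Tools named in the submitters' processing notes are HISAT2 2.1.0, StringTie 2.1.3b, Trimmomatic and bcl2fastq 2.20.0, with GRCm38/mm10 as the genome. The counting step and its strand setting are not given in the sources used here, so reads from overlapping genes cannot be told apart: in the annotation Nlrc4 overlaps Gm4708, Nlrp1b overlaps Gm23266 and Nlrp1c-ps, and P2rx7 overlaps Mir8115.

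Skin and DRG had separate fits in R 4.3.3 with edgeR 4.0.16 (genes kept by filterByExpr, TMM scaling, robust quasi-likelihood F test), and p-values were adjusted by Benjamini-Hochberg over all genes tested (called under 0.05). The difference between tissues and control skin against control DRG came from 1 fit of all 24 libraries, which treated skin and DRG libraries as independent. Levels are TMM-scaled CPM, and intervals are 95% from the SE by a normal approximation. Such intervals are narrower than the F test implies, so they can leave out 0 where that test does not pass. The code was tested on simulated data. Alternatives were DESeq2 1.42.0, other scalings and filters, limma 3.58.1 on log2(TPM + 1) and log2(TPM + 0.1), a replicate block and leaving out each library. Depth per library is given with the results and covers counting error only. Promoter sequences and gene positions are RefSeq's for GRCm38.p6. The 9 genes, the lists and the rule for named genes (up to 4 per list and tissue by smallest p, a few fixed genes, and the 3 genes most correlated with each of the 9) were chosen with earlier results of these data known. None of the 60 library pairs within a group was a duplicate (lowest chi-square per gene 8.48).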

Additional observations from a re-analysis of the deposited data

Results flagged for a closer look

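Within groups of 6 libraries, 64 groups of values were checked for a library set apart from the rest, and 8 were found; chance gives about 1 in 20. In model DRG 5, Nlrp3 was highest at 0.943 CPM (next 0.591 CPM) and Il1b was highest at 0.806 CPM (next 0.422 CPM). In control skin 2, Nlrp10 was highest at 118 CPM (next 73.8 CPM), Il18 at 51.6 CPM (next 24.6 CPM) and Nek7 at 154 CPM (next 115 CPM), and Gsdma was lowest at 195 CPM (next 423 CPM). Gsdme was highest in model skin 1 at 7.04 CPM (next 3.79 CPM), and Casp8 was lowest in model DRG 6 at 2.32 CPM (next 4.40 CPM).

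Among the 9 genes and the 7 others always given (Il1b, Il18, Aim2, Nek7, Gsdme, Gsdma and Casp8), the model effect differed between skin and DRG by the test of the difference itself (edgeR, adjusted p under 0.05) for 7 genes. The skin change minus the DRG change on the log2 scale was 1.98 for Nlrp3, 1.41 for Gsdmd, 1.35 for Casp4 and 1.47 for Nlrp1b. It was 1.61 for Aim2, 1.29 for Gsdme and -1.53 for Gsdma. Part of the Gsdma difference came from DRG, where its log2 fold change of 0.68 was not called (edgeR adjusted p = 0.5). There Gsdma was low, at 11 to 38 counts per library.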

How the results depend on the processing

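The 6 skin calls among the 9 genes kept their direction and call in every leave-one-out fit, with log2 fold changes of 2.02 to 2.39 for Nlrp3, 1.68 to 1.94 for Gsdmd, 1.45 to 1.73 for Nlrp1b, 1.36 to 1.66 for Nlrc4, 1.25 to 1.51 for Casp4 and 0.40 to 0.54 for P2rx7; P2rx7 fell out under a minimum log2 change of 1, and with at least 1 CPM in 6 libraries Nlrc4 was not tested, which left 5 skin calls. Leave-one-out fits called 2564 to 6278 genes in skin (6278 without control skin 2), 11 to 36 in DRG and 2229 to 4646 for the difference, and 4 to 6 of the 9 genes in the difference. Skin calls numbered 6820 with all 24 libraries in 1 fit, 1739 at a minimum log2 change of 1 and 6734 without control skin 2 and model skin 2 (an alternative chosen after seeing the data), where the difference gave 5319. DRG calls numbered 12 with at least 1 CPM in 6 libraries, 135 in DESeq2 and 32 with 24 libraries in 1 fit. With that CPM filter 2 of the 9 genes were called in the difference, since fewer were tested. Libraries of the same replicate number showed no clear likeness. Their correlations were -0.525 to 0.269 between model and control skin and -0.455 to -0.0444 between model and control DRG. Between skin and DRG they were -0.142 to 0.0512 in the model and -0.0409 to 0.0826 in controls. The labels do not say whether skin and DRG libraries of a number came from the same mouse, and correlations across tissues cannot decide it. The replicate block grouped libraries by number across model and control, so it does not stand for mice. It gave 2804 calls in skin and 6 in DRG and changed no call among the 9 genes. Under the block Gsdma was no longer called in skin (edgeR adjusted p = 0.0987).

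Signs of small, uncalled changes turned. Without control skin 2 and model skin 2, the log2 change in skin was 0.0932 for Pycard and 0.26 for Nlrp10, and the difference 0.14 for Pycard and 0.0919 for Nlrp10. The Pycard difference was also 0.0279 on TPM + 0.1 and 0.0484 with TMM within tissue. In DRG, Casp4 gave 0.0055 under the block, 0.0429 on TPM + 1 and 0.0635 on TPM + 0.1. On TPM + 1 and TPM + 0.1, Il18 gave 0.0043 and 0.0026 and Nek7 0.0457 and 0.0460, and Il18 gave 0.0030 when scaled by library totals alone. Leave-one-out ranges that crossed 0 were, in DRG, -0.0515 to 0.44 for Aim2, -0.0556 to 0.0623 for Casp1, -0.12 to 0.0756 for Casp4, -0.13 to 0.0758 for Il18, -0.10 to 0.0214 for Nek7, -0.10 to 0.30 for Nlrp10, -0.13 to 0.16 for Nlrp1b and -0.0238 to 0.23 for Nlrp3, in skin -0.14 to 0.15 for Nlrp10 and -0.17 to 0.0431 for Pycard, and for the difference -0.38 to 0.0317 for Nlrp10 and -0.10 to 0.15 for Pycard. The difference of Nlrc4 was also called on TPM + 1, and that of P2rx7 with TMM within tissue. The cause of these moves was not tested.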
